A study of Mus musculus with 6 samples.

Results

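The contractile actin genes Tagln, Tagln2, Myl9, Acta1, Acta2, Actg2, Cnn1, Cnn2, Tpm1 and Tpm2 were followed across 6 arrays of differentiating mouse embryonic stem cells. They were chosen by name, as genes of the actin and myosin apparatus that had stood out for high signal in experiment 3 of these same arrays, and were represented by every probe set annotated to exactly 1 of their symbols. That gave 20 probe sets for 10 genes, of 45037 probe sets and 18193 genes with such a probe set on the array. Because the level of experiment 3 beside experiments 1 and 2 chose the genes, that difference is described here without a test. The comparison of knockdown with control did not enter the choice and was tested, both without and with pairing of the arrays by experiment.

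Cells in all groups were derivatives of the embryonic stem cell line E14TG2a, of 129P2 (formerly 129/Ola) background, kept for 2 days in N2B27 medium, which contains no serum and lets such cells turn to a neural fate. Each culture carried a Dox-inducible hairpin in a microRNA backbone (shRNAmir) against Geminin, an inhibitor of replication licensing encoded by Gmnn, and the uninduced controls carried it too. The GemKD group received doxycycline (500 ng Dox as the labels give it) and the control group none, so Dox and knockdown cannot be told apart. Experiments 3 and 1 used the line with shRNAmir 11 and experiment 2 a separate line with shRNAmir 9, with 1 GemKD and 1 control array in each, so that every difference between experiments rests on 2 arrays of 1 experiment. Signals are the deposited linear intensities, and differences are on the scale of log2(signal + 16), which understates the change of dim probe sets.

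Actin filaments with myosin II generate the contractile force of muscle and, through related isoforms, the tension of stress fibres in other cells. Tropomyosins, calponins and transgelins bind along the filament. Many genes of this apparatus are known targets of serum response factor (SRF), which binds the CArG box. Its cofactors of the MRTF family are held back by monomeric actin and released when actin is drawn into filaments, so that the state of the cytoskeleton feeds back on these genes.

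The labels name the cultures as neurectoderm. The 8 neurectoderm markers were all above the filter on low signal (a mean of 20.1 over the 6 arrays), and their summed signal was 7896 to 8517 in experiment 3 and 11102 to 11946 in experiments 1 and 2. Sox1, an early neural factor, was at 577 in GemKD and 523 in control in experiment 3, and between 2108 and 2443 in the other 4 arrays. Of the brightest of them, Sox2 differed by -0.18 and Sox3 by 0.35. Of the 8, 5 had both arrays of experiment 3 below the other 4 and 1 had both above. Of all genes, by the brightest probe set, 31% and 19.7% did so. The median difference of the 8 was -0.55 and the lowest -2.24. The 4 primed epiblast markers summed to 20339 to 20693 in experiment 3 and to 13525 to 15675 in experiments 1 and 2. Among these, Dnmt3b was higher by 0.19, Pou3f1 by 0.95 and Otx2 by 0.93. All 4 had both arrays of experiment 3 above the others, against 19.7% of all genes, and the largest difference was 2.17. Experiment 3 thus stood apart in both arms on markers of cell state. The part of this in the levels of the contractile genes was not tested. Array medians were between 59.3 and 60.9. Gmnn was at 36.7%, 27.6% and 48% of its own control in experiments 3, 1 and 2, so all 3 GemKD arrays carried less of the targeted transcript.

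Of the 20 member probe sets 17 passed the filter, including the brightest probe set of each of the 10 genes. Both arrays of experiment 3 lay above the other 4 for 11 of the 17 (64.7%), where 20.8% of all 31526 probe sets did so. Both lay below for 1 of the 17, against 25.7% of all. At least 2-fold higher as well were 4 of the 17 (23.5%), against 0.584% of all, and 0 of the 17 were at least 2-fold lower, against 1.38% of all. By the brightest probe set of each gene, 7 of 10 lay above and 1 below, against 19.7% and 31% of 14185 genes. The label of high signal in experiment 3 therefore did not hold for Acta2, nor for Actg2 and the brightest probe set of Tpm2, which overlapped. Since the genes were chosen on this contrast, nothing is read from these shares. The median difference of experiment 3 from experiments 1 and 2 was 0.54 over the 17 and -0.01 over all probe sets. In these bulk cultures more cells of one type and more RNA per cell cannot be told apart.

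The first group are the transgelins and calponins, actin-binding proteins of one family. Tagln encodes transgelin (SM22), an early marker of smooth muscle that is also made by other cells with stress fibres. In experiment 3 its signal was 767 in GemKD and 789 in control. It was 132 in GemKD and 165 in control in experiment 1, and 168 in GemKD and 199 in control in experiment 2. Both arrays of experiment 3 were far above the other 4, by 2.14 on the log2 scale (4.39-fold), where the SD among those 4 arrays was 0.22. The difference was 2.24 among GemKD arrays and 2.03 among controls. It was 2.27 against experiment 1, which used the same hairpin, and 2.00 against experiment 2.

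Cnn1, which encodes calponin 1, the calponin of differentiated smooth muscle, followed the same pattern. Its signal in experiment 3 was 268 in GemKD and 294 in control. It was 55.2 in GemKD and 65.4 in control in experiment 1, and 42.3 in GemKD and 61.8 in control in experiment 2. The groups of arrays did not overlap and differed by 2.05 (4.14-fold). Cnn2, a calponin of many cell types, was at 2572 in GemKD and 2621 in control in experiment 3. It was at 1269 in GemKD and 1317 in control in experiment 1, and at 1546 in GemKD and 1449 in control in experiment 2. Its difference was smaller, 0.89 (1.86-fold), again without overlap.

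Tagln2, the transgelin of non-muscle cells, had 3 probe sets that differed in size. On the brightest, 1426529_a_at, the signal was 852 in GemKD and 929.97 in control in experiment 3. It was 716 in GemKD and 626 in control in experiment 1, and 722 in GemKD and 639 in control in experiment 2. Experiment 3 was higher by 0.39. On 1439407_x_at, whose suffix marks probes that may bind related transcripts, it was higher by 1.03 (2.04-fold), at 626 and 648 in the GemKD and control arrays of experiment 3 and at 259 to 335 in the other 4. Both probe sets put experiment 3 on top, but they gave 1.31-fold and 2.04-fold for the same gene. The probe set 1420245_x_at was below the filter, between 1 and 10.6 on all 6 arrays.

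Myl9 encodes a regulatory light chain of myosin II, whose phosphorylation switches on contraction in smooth muscle and non-muscle cells. Its signal in experiment 3 was 719 in GemKD and 725 in control. It was 132 in GemKD and 139 in control in experiment 1, and 192 in GemKD and 151.5 in control in experiment 2. Experiment 3 lay above by 2.13 (4.38-fold), with 2.06 among GemKD arrays and 2.20 among controls. Tagln, Myl9 and Cnn1 were the 3 genes whose brightest probe set was at least 2-fold higher, where 0.726% of the 14185 genes were so.

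**Figure D1:**
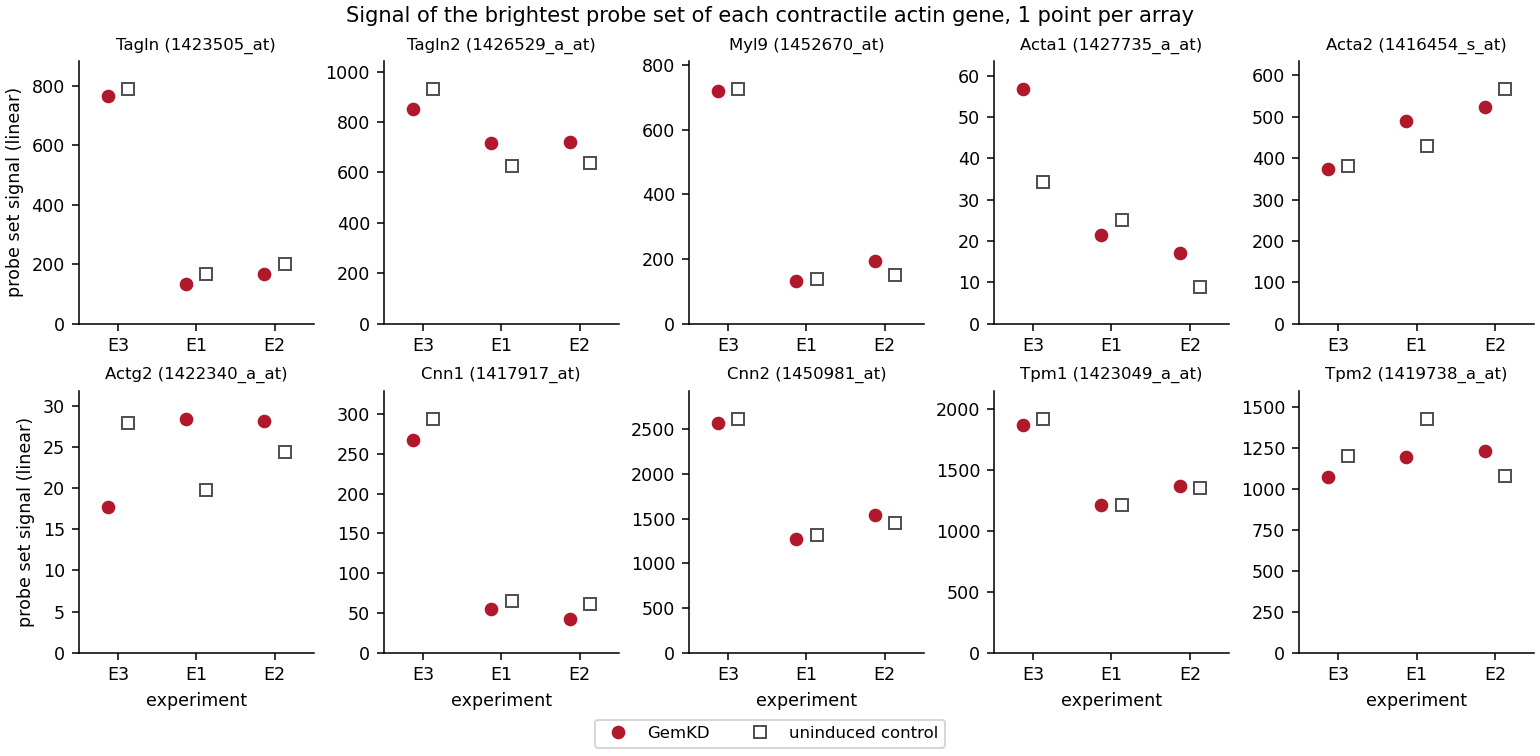
Linear signal of the brightest probe set of each gene (vertical axis, from 0) in experiments E3, E1 and E2, with 1 point per array, filled circles for GemKD and open squares for uninduced control. Tagln, Myl9 and Cnn1 stand far higher in E3 in both arms, Cnn2 and Tpm1 moderately so, Acta2 lies lower there, and Actg2 and Tpm2 overlap between experiments.

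The muscle actins did not move together. Acta2, the smooth muscle alpha actin and a standard marker of smooth muscle and myofibroblasts, was read by 1416454_s_at at 374 in GemKD and 381 in control in experiment 3. It was at 490.45 in GemKD and 429.82 in control in experiment 1, and at 523 in GemKD and 567 in control in experiment 2. Experiment 3 was therefore the lowest for this gene, with a difference of -0.39 (0.762-fold), in contrast to Tagln and Cnn1. The suffix of this probe set marks probes shared between transcripts of different genes, and the coding sequences of actins are nearly identical, so its signal may include other actins.

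Acta1, the skeletal muscle alpha actin, was dim, with 56.7 in GemKD and 34.2 in control in experiment 3. It had 21.5 in GemKD and 25 in control in experiment 1, and 17.1 in GemKD and 8.92 in control in experiment 2. Experiment 3 was higher without overlap, by 0.85 (1.80-fold), and the size of this difference depended on the pseudocount (1.33 with 1, 0.41 with 64). Actg2, the smooth muscle gamma actin of gut and other hollow organs, stayed near the filter limit on every array. It had 17.7 in GemKD and 27.9 in control in experiment 3, and 19.7 to 28.4 in the other 4 arrays. Experiments overlapped for Actg2 (difference -0.09).

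Tropomyosins run along the actin filament and set its access to myosin. Tpm1 was higher in experiment 3 on all 4 of its probe sets, by 0.55, 0.78, 0.22 and 0.54 in order of brightness, and 3 of them showed no overlap. On the brightest, 1423049_a_at, it was at 1868 in GemKD and 1923 in control in experiment 3. It was at 1213 in GemKD and 1215 in control in experiment 1, and at 1370.1 in GemKD and 1352 in control in experiment 2. The second, 1423721_at, read 1844 and 1826 in the GemKD and control arrays of experiment 3, and 968 to 1137 in the other 4. Probe sets of 1 gene can read different splice forms, of which Tpm1 has many.

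Tpm2, known chiefly from smooth and skeletal muscle, showed no such shift on its brightest probe set. Its 4 probe sets differed by -0.11, 0.10, 0.13 and 0.21 in order of brightness. The brightest, 1419738_a_at, was at 1074 in GemKD and 1199.8 in control in experiment 3, and 1082 to 1430.28 in the other 4 arrays, which overlapped. Only 1425028_a_at placed both arrays of experiment 3 above the rest, at 868 in GemKD and 904 in control, against 804 to 845 in the other 4.

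**Figure D2:**
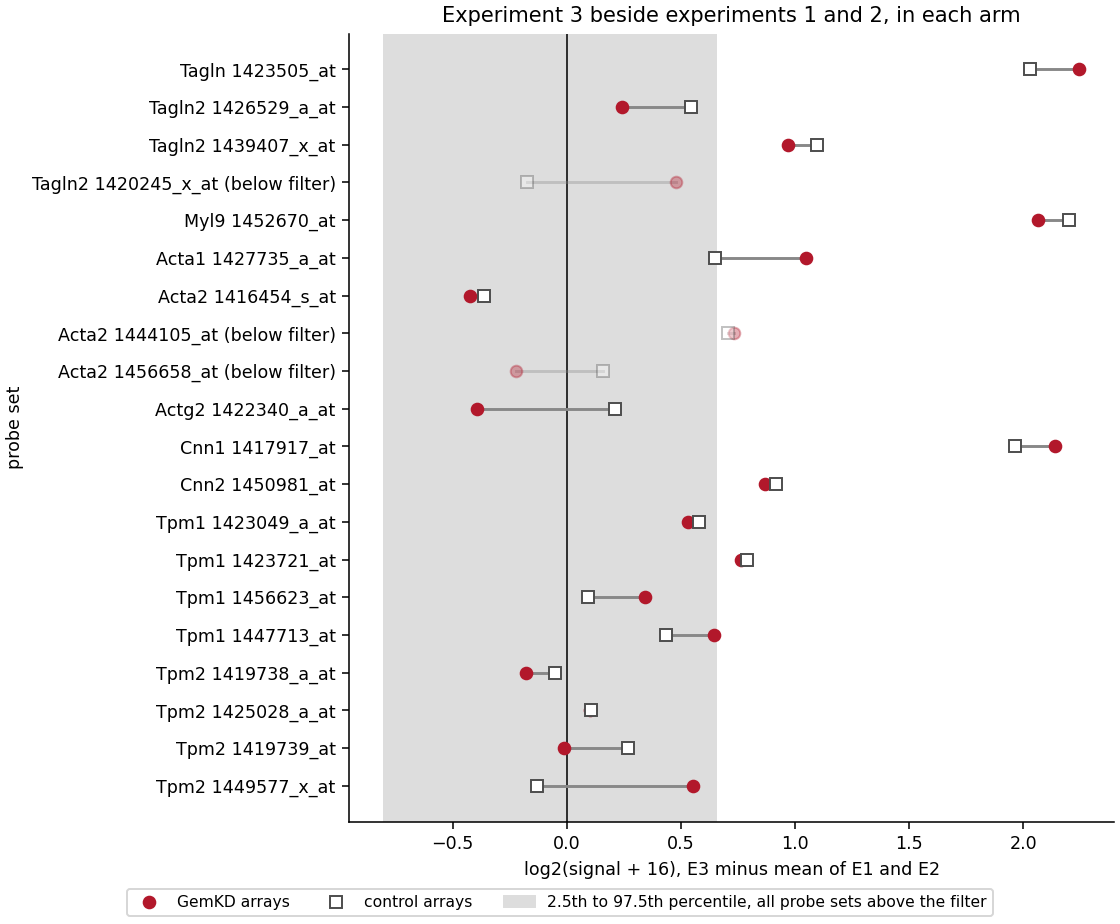
Difference of experiment 3 from the mean of experiments 1 and 2 in log2(signal + 16), for each of the 20 member probe sets, separately among GemKD arrays (filled circles) and control arrays (open squares). The grey band holds the middle 95% of the 31526 probe sets above the filter (-0.80 to 0.65). It is of the difference over both arms together, while each point is of a single arm. Tagln, Myl9 and Cnn1 lie near 2 in both arms. The brightest probe sets of Tagln2, Acta2, Actg2, Tpm1 and Tpm2 lie within the band in both arms.

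Experiments 2 and 1 also differed on several members. Both arrays of experiment 2 lay above both of experiment 1 for 8 of the 17 probe sets (47.1%), where 16.3% of all 31526 did so, and below for 2 of the 17, against 16.8% of all. The lines and hairpins differ between these experiments, and no test was made. Myl9 was higher in experiment 2 by 0.30, Tagln by 0.28, Cnn2 by 0.21 and the brightest Tpm1 probe set by 0.16. Acta2, which was low in experiment 3, was also higher in experiment 2, by 0.24. Cnn1 overlapped between experiments 2 and 1 (-0.18).

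Across the 6 arrays the log2 profile of Tagln correlated with those of Myl9 (r = 0.99), Cnn2 (0.99), Tpm1 (0.98) and Cnn1 (0.98), and with that of Acta2 at -0.80. Acta1 and Acta2 had r = -0.94 and Tagln and Tpm2 had -0.43. These values describe the contrast of experiment 3, since the 6 arrays share it. The genes outside the list whose profile was most like the mean profile of the 10, of 1091 genes with a range of at least 2-fold, were Dtx1 (r = 0.999), Sertad4 (0.998), Pfkfb3 (0.997), Doc2a (0.995) and Krt18 (0.995). Krt18 encodes a keratin of simple epithelia, and was at 626 in GemKD and 652 in control in experiment 3 and at 186 to 231 in the other 4 arrays.

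Promoters of the members were also read for binding motifs. RefSeq promoters of GRCm38.p6 were matched for 8 of the 10 genes, and those of Tagln and Actg2 were not analysed here. The CArG box, a pair of C, 6 bases of A or T and a pair of G, was searched on both strands in the 250 bases before the annotated start. It was found in 3 of the 8, Myl9, Cnn2 and Acta1, and in 1.47% of all 32851 promoters (1.62% of 27025 genes). The form with 1 core base other than A or T was found in Myl9, Acta1 and Acta2. Of all promoters 7.24% held it (8.33% of genes). The motif CATTCC, or GGAATG on the other strand, which TEAD factors bind, was found in Tagln2, Acta1, Acta2 and Tpm1. Of all promoters 12.6% held this motif (14.4% of genes). No match overlapped another. A match describes the letters, not binding. Since many genes of this apparatus are known SRF targets, nothing is read from the share of members with a CArG box.

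The windows below hold the 3 CArG boxes, 1 of the 2 CArG-like elements of Acta2, the actin that was lower in experiment 3, and the CATTCC match of Tpm1. Capitals mark the match for which each window is shown, and the CATTCC match of Acta1 is in lower case in its window. All are 90 bases of the coding strand, 5′ to 3′, upstream of the start, in GRCm38.p6. The Myl9 window is chr2:156775263-156775352 on the plus strand, the Cnn2 window chr10:79988504-79988593 on the plus strand and the Acta1 window chr8:123894799-123894888 on the minus strand. The Acta2 window is chr19:34255408-34255497 and the Tpm1 window chr9:67049214-67049303, both on the minus strand.
Myl9: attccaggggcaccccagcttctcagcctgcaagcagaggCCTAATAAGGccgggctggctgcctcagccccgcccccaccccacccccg
Cnn2: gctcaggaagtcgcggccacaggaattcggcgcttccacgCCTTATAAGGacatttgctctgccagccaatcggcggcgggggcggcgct
Acta1: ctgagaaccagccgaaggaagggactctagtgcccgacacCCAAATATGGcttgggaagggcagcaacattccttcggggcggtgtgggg
Acta2: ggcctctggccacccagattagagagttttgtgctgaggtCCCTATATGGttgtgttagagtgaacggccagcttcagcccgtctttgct
Tpm1: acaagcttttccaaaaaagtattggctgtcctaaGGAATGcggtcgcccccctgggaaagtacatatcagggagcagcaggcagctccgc

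The CArG boxes began 161, 56 and 73 bases before the start in Myl9, Cnn2 and Acta1. Myl9, Cnn2 and Acta1 differed by 2.13, 0.89 and 0.85 between experiment 3 and the others. Cnn1, with a difference of 2.05, and Tpm2, with -0.11, had no match to any of these motifs in this window. Whether a motif goes with the difference was not tested.

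**Figure D3:**
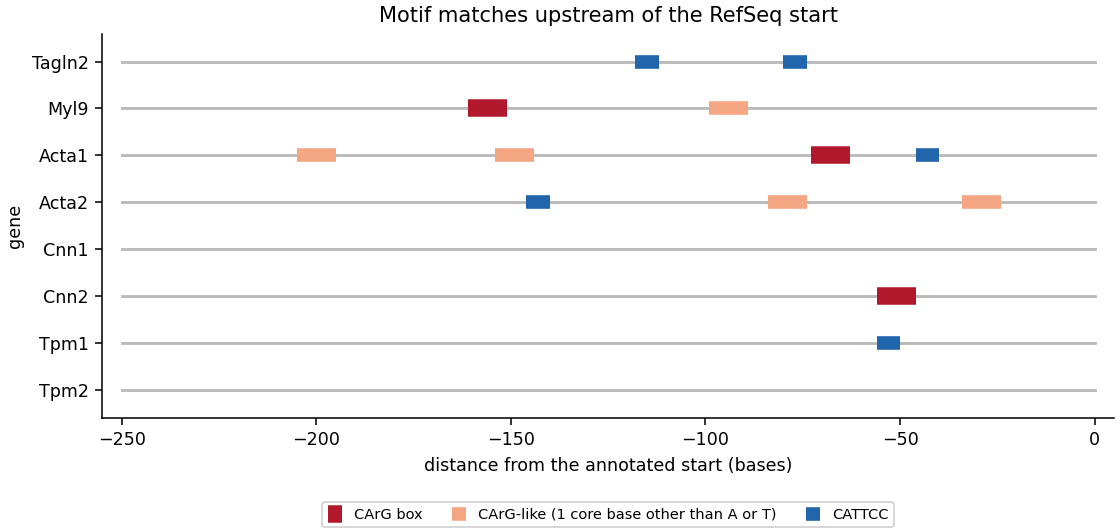
Motif matches in the 250 bases before the annotated start of the 8 genes with a RefSeq promoter (horizontal axis, distance from the start in bases). CArG boxes are dark red, forms with 1 other core base light red and CATTCC on either strand blue. Myl9, Acta1 and Cnn2 hold a CArG box, and Cnn1 and Tpm2 hold none of the motifs.

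The knockdown comparison asks whether loss of Geminin changed these genes at 2 days. In limma over all 31526 probe sets no member passed an adjusted p of 0.05. The fit called 1 probe set in all (0.00317%), that of Hprt. None of the 17 members had an unadjusted p under 0.05 in it, against 1.1% of all. Gmnn itself, at a log2 fold change of -1.44, was not called in this fit (limma adjusted p = 0.296). Without a block the level of experiment 3, which chose the members, enters the error. Half-widths of the 95% intervals of that fit were 0.20 to 1.70 over the 17. It could hardly call members with a large difference between experiments, so nothing is read from that count. With the experiment as a block, which removes the large differences between experiments, 3 probe sets were called (0.00952%) and again none of the 17 members. The 3 were those of Gmnn and Hprt and a probe set without a symbol. With the block none of the 17 had an unadjusted p under 0.05, against 4.62% of all, and their lowest adjusted p was 0.992. Member log2 fold changes of GemKD against control were between -0.25 and 0.27, with a median of 0.004 over the 17 and 0.01 over all. The 95% intervals of the block fit had half-widths of 0.12 to 0.44, all included 0, and their outer bounds were -0.58 and 0.71.

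Among the brightest probe sets, Tagln and Cnn1 had the lowest mean ratios, while their relatives Tagln2 and Cnn2 had 0.08 and 0.004. Tagln averaged 356 ± 356 in GemKD and 384 ± 351 in control (SD, n = 3 each), where each SD includes the high level of experiment 3. Its log2 ratio of GemKD to control was -0.04, -0.29 and -0.23 in experiments 3, 1 and 2 (mean -0.19, blocked interval -0.40 to 0.03, limma adjusted p = 0.992). Cnn1 had -0.13, -0.19 and -0.42 (mean -0.25, interval -0.52 to 0.03, limma adjusted p = 0.992). Both were lower in 3 of 3 experiments without passing the test. Another probe set with this pattern, 1425028_a_at of Tpm2, had a mean of -0.06. So 3 of the 17 (17.6%) were lower and 0 higher in all 3 experiments, where 10.5% of all probe sets were lower and 13.5% higher in all 3. By the brightest probe set, 2 of the 10 genes were lower and 0 higher in all 3, against 11.7% and 12.2% of genes. The 3 GemKD arrays lay all below the 3 controls for 0 of the 17 and all above for 0, where 2.27% and 2.83% of all probe sets did so.

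The bright members gave the narrowest intervals. Cnn2 had a mean log2 ratio of 0.004 (blocked interval -0.12 to 0.13) and the brightest Tpm1 probe set -0.01 (-0.13 to 0.12), so changes beyond these bounds lie outside the intervals. Myl9 had -0.01, -0.07 and 0.32 in experiments 3, 1 and 2 (mean 0.08, -0.15 to 0.31), with the one larger ratio in the line with shRNAmir 9. Acta2 had -0.02, 0.18 and -0.11 (mean 0.02, -0.18 to 0.21). The dim Acta1 had the highest mean, 0.27, with ratios of 0.54, -0.13 and 0.41 and an interval from -0.16 to 0.71, and Actg2 had 0.02 (-0.42 to 0.46).

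**Figure D4:**
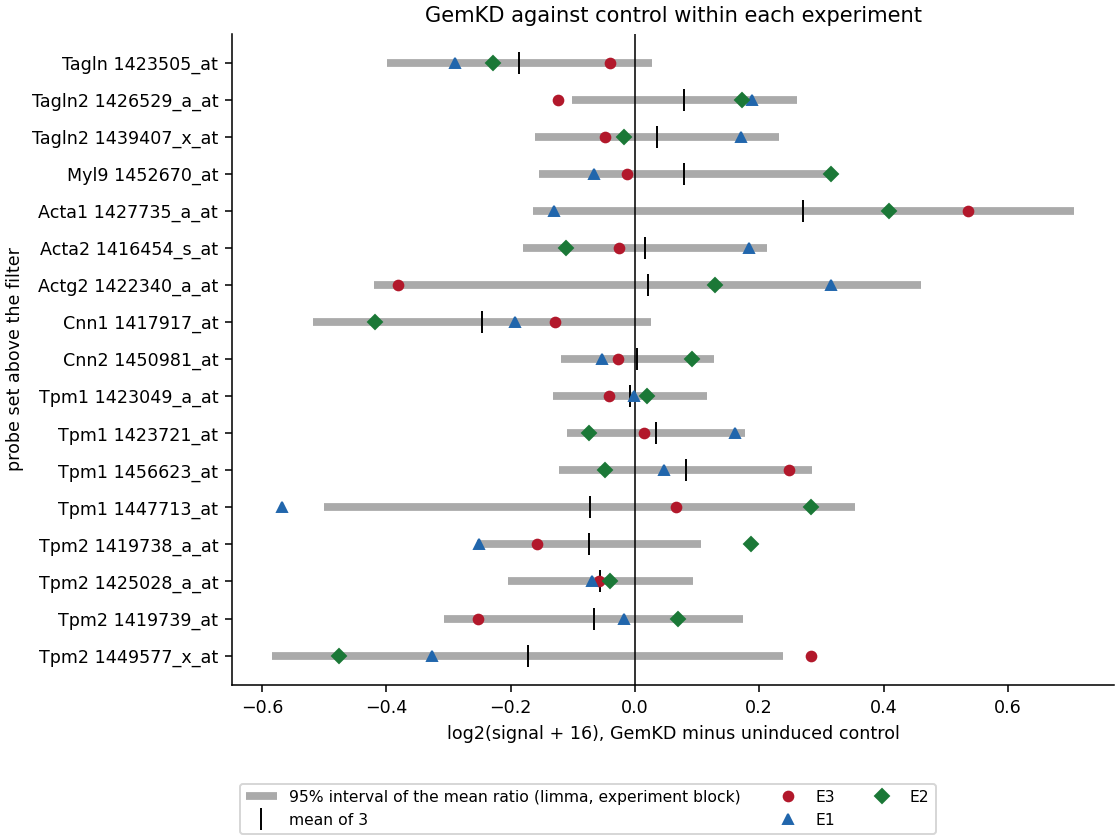
Log2 ratio of GemKD to uninduced control, from log2(signal + 16), for the 17 member probe sets above the filter, with 1 symbol for each of experiments E3, E1 and E2, the mean as a black bar and its 95% interval from limma with the experiment as a block in grey. Every interval includes 0, and Tagln and Cnn1 have all 3 ratios below 0.

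Whether the response in experiment 3 differed from that in experiments 1 and 2 was tested by an interaction term in limma. No member passed (2 of 31526 probe sets, 0.00634%, did), and 1 of the 17 had an unadjusted p under 0.05, against 11% of all. It was 1426529_a_at of Tagln2, with ratios of -0.12 in experiment 3 and of 0.19 and 0.17 in experiments 1 and 2 (difference -0.30, 95% interval -0.59 to -0.02, limma adjusted p = 0.441). For Tagln the difference was 0.22 (-0.16 to 0.59), for Myl9 -0.14 (-0.58 to 0.31) and for Cnn1 0.18 (-0.34 to 0.69).

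The rest of the pathway was taken from 8 lists of related genes, each gene by its brightest probe set. Of 61 genes above the filter, 19 (31.1%) lay above in both arrays of experiment 3 and 18 (29.5%) lay below, where 19.7% and 31% of all 14185 genes did so. At least 2-fold higher was 1 of the 61 and lower 1, where 0.726% and 1.73% of all were. The median difference was 0.70 for the 10 contractile genes and 0.01 for these 61. The 10 were chosen for high signal in experiment 3, so nothing is read from the gap between these medians. For GemKD against control none of the 61 was called by limma in either fit (0.00705% of the 14185 genes were called without and 0.0141% with the block). Unadjusted p was under 0.05 for 0 of the 61 without and 2 with the block, Lats2 (log2 0.31) and Smad7 (0.28), both with a limma adjusted p of 0.992 and named here after their values were seen. These lists are not independent of earlier results on these arrays.

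Among other actins, Actb and Actg1, the cytoplasmic actins, had differences of -0.02 and 0.01 between experiment 3 and the others. Actc1, the cardiac alpha actin, which is an early actin of embryonic muscle, was the 1 gene past 2-fold. Its signal was 123 in GemKD and 114 in control in experiment 3 and 12.1 to 22.8 in the other 4 arrays, a difference of 2.05. Of the relatives of the members, Tpm4, a tropomyosin of non-muscle cells, was higher by 0.71, Tpm3 differed by -0.02 and Cnn3 by -0.22. Myosin II genes stayed close, between -0.25 and 0.26 for 9 genes, with Myl12a, a regulatory light chain of non-muscle myosin, at 0.01, Myl12b at 0.06 and Myh10 at -0.08.

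Crosslinkers and adhesion genes went both ways, with 7 of 19 above and 6 of 19 below in experiment 3, against 19.7% and 31% of all genes. Their brightest members were Lasp1 (-0.27), Actn4 (-0.35) and Actn1 (-0.17), the last 2 being alpha-actinins, which bundle actin filaments. Zyx and Vcl, which encode adhesion proteins, were higher by 0.54 and 0.45. Itga5, Pxn and Tln1, an integrin subunit and adhesion proteins of the same list, differed by -0.95, -0.67 and -0.61. These 5 genes are named here after their values were seen.

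The regulators of these genes were also read. Srf was at 946 in GemKD and 913 in control in experiment 3 and at 827 to 937 in the other 4 arrays, a difference of 0.09 with overlap. Among its cofactors Mrtfa differed by -0.18 and Mrtfb by 0.06, with overlap for both. The smooth muscle cofactor Myocd differed by 0.47, at signals of 6.48 to 32.1. Elk1, Elk3 and Elk4, the other cofactors of the list, differed by -0.56, -0.70 and 0.50. Of the 7 genes of this list 2 lay above and 2 below in both arrays of experiment 3, against 19.7% and 31% of all genes. Of 5 immediate early SRF targets 3 lay above in experiment 3, against 19.7% of all genes, with a median of 0.59. Egr1, a zinc finger factor induced by serum, was at 539.92 in GemKD and 624 in control in experiment 3 and at 285 to 357 in the other 4 (difference 0.87). Junb had 0.66 and Ier2 0.08. Targets of TGF-beta and YAP signalling had a median of -0.16 over 9, with Skil at -0.003, Ajuba at -0.04 and Ccn2 at -0.16, and the TGF-beta target Tgfbi was the 1 gene at least 2-fold lower (-1.23). Among TGF-beta receptors and Smads, Tgfbr1 had -0.23, Smad2 -0.28 and Smad3 -0.06. With the TGF-beta ligands, this list had 6 genes above the filter, with differences from -0.28 to 0.35 and a median of -0.07. Of the 6, 2 lay above and 2 below in both arrays of experiment 3, against 19.7% and 31% of all genes.

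**Figure D5:**
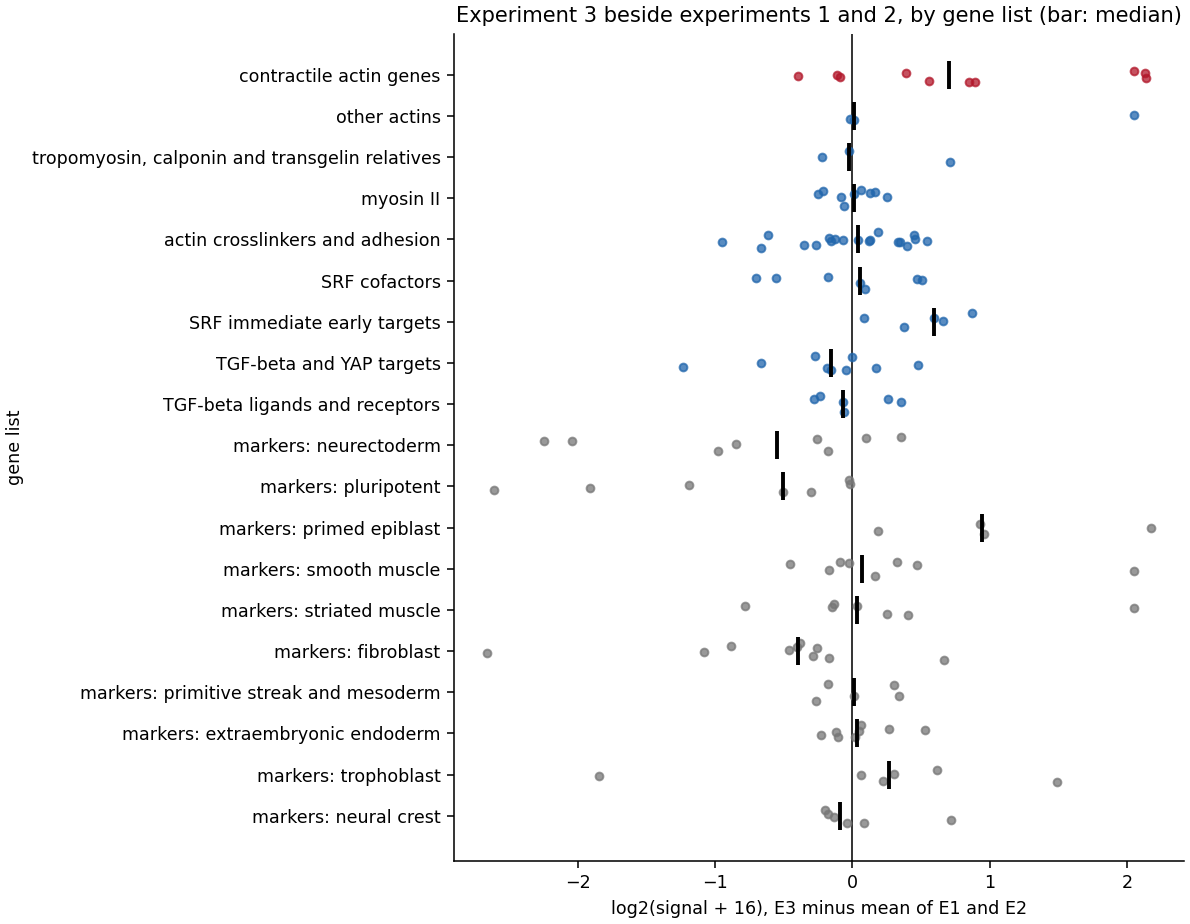
Difference of experiment 3 from experiments 1 and 2 in log2(signal + 16) for each gene above the filter (1 point, brightest probe set), by list, with the median as a black bar, the contractile actin genes in red, pathway lists in blue and cell type markers in grey. The contractile genes, which were chosen on this difference, spread from -0.39 to 2.14 with a median of 0.70. Most pathway lists centre near 0.

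Markers of cells that carry this apparatus were set beside these values. Of 9 smooth muscle markers, 8 were above the filter, but Actg2 and Cnn1 are members, and the other 7 summed to 340 to 366 in experiment 3 and to 295 to 359 in experiments 1 and 2, overlapping. Smtn, which encodes smoothelin, differed by -0.03 and Synpo2 by 0.32. Myh11, the smooth muscle myosin heavy chain and a defining marker, had a mean below the filter, at 15.1 in GemKD and 16.4 in control in experiment 3 and 11.2 to 14.3 in the other 4. Fibroblast markers, all 10 above the filter, summed to 870 to 984 in experiment 3 and 1605 to 1762 in experiments 1 and 2. Col1a2, a fibrillar collagen gene, differed by -1.08 there, Col3a1 by -0.88 and Postn by -2.66. Of the 10 fibroblast markers, 5 had both arrays of experiment 3 below the others and 1 had both above, against 31% and 19.7% of all genes. Their differences were between -2.66 and 0.66, with a median of -0.39.

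Each sum in this paragraph is over all genes of the list, also those below the filter. Striated muscle markers, 7 of 10 above the filter, summed to 385 to 405 in experiment 3 and 278 to 313 in experiments 1 and 2. The higher sum rests on Actc1. Its signal was 123 in GemKD and 114 in control in experiment 3 and 12.1 to 22.8 in experiments 1 and 2. The median difference of the 7 genes above the filter was 0.03. Myh6 (0.25) and Nkx2-5 (-0.13) overlapped between experiments and Myog was at 1 to 6.13. Streak and mesoderm markers, 5 of 8 above the filter, summed to 761 to 793 in experiment 3 and 769 to 905 in experiments 1 and 2, with Mesp1 at -0.17, Eomes at -0.27 and Hand1 at 0.30. Extraembryonic endoderm markers, 8 of 9, summed to 4759 to 4882 in experiment 3 and 4035 to 4705 in experiments 1 and 2, with Sparc at -0.10, Lamb1 at 0.53 and Dab2 at 0.02. Trophoblast markers, 6 of 8, summed to 1304 to 1355 in experiment 3 and 1401 to 1654 in experiments 1 and 2, and Krt18 and Krt8 were higher by 1.49 and 0.62 while Tfap2c differed by -1.85. Neural crest markers, 6 of 6, summed to 969.61 to 1021 in experiment 3 and 820 to 969.61 in experiments 1 and 2, with Foxd3 at 0.72, Tfap2a at -0.20 and Ngfr at -0.13. Pluripotency markers, 7 of 7, summed to 20008 to 20269 in experiment 3 and 26066 to 28039 in experiments 1 and 2, with Dppa5a at -0.30, Pou5f1 at -0.03 and Zfp42 at -1.19. For 5 of these 7 both arrays of experiment 3 lay below the others, against 31% of all genes. At least 2-fold lower were 3 of the 7, against 1.73% of all. The part of any of these cell states in the contractile gene levels was not tested.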

How the data were processed

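Total RNA was measured on Affymetrix GeneChip Mouse Genome 430 2.0 arrays. The authors deposited 1 linear intensity for each probe set and array, and neither the software nor the normalization behind it is known from the labels. Array medians were alike, so no scaling was added. Gene names came from GEO's platform annotation (34945 probe sets with 1 symbol, 932 with several, 9160 with none).

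Probe sets with a mean intensity above the 30th percentile (20.1) were tested on log2(signal + 16) with limma 3.58.1 in R 4.3.3, using eBayes with a trend on intensity. Tests were two-sided, with Benjamini-Hochberg adjustment over all probe sets and a threshold of 0.05. GemKD was set against control without a block, and an alternative fit blocked on experiment. The experiment number pairs the arrays, because each independent experiment had its own control. Paired deviations from the group means correlated at 0.656, 0.431 and 0.380 in experiments 3, 1 and 2. The interaction was fitted with the block and has 1 residual degree of freedom before moderation. The number of arrays limits the precision, and p-values measure only the spread between them.

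Named were all members, Gmnn, Actb, Actg1, Srf and its cofactors, the 3 brightest genes of each list, cell type markers and the 5 most similar profiles; others are said to be named after their values were seen or are the single gene behind a count. Members and lists were chosen with earlier results of these data known. The scripts were tested on simulated data. Promoters are from RefSeq (GRCm38.p6). Results of 1 further list are not reported here.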

Additional observations from a re-analysis of the deposited data

How the results depend on the processing

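No member probe set was called for GemKD against control, or for the interaction, under any alternative run, and the pairing by experiment (the block) changed no call of a member. Over all probe sets the count of 1 became 3 with the block, 0 without the intensity trend and 13 with the block on experiments 1 and 2 alone, an alternative added after seeing the data. It was 0 to 1 when arrays or experiments were left out. The interaction count of 2 became 1 with a pseudocount of 1, 1 without a filter and 0 without the trend, and it was not refitted with an array left out, which leaves no residual degrees of freedom. Fold changes that lie near 0 changed sign, with -0.0087 for Acta2 and -0.014 for Cnn2 under quantile normalization. When each array or experiment was left out without a block, the log2 fold change of GemKD against control was between -0.93 and 0.49 for Tagln, -0.019 and 0.26 for Tagln2, -0.61 and 0.81 for Myl9, and -0.078 and 0.49 for Acta1. It was between -0.10 and 0.17 for Acta2, -0.13 and 0.22 for Actg2, -0.96 and 0.41 for Cnn1, -0.29 and 0.31 for Cnn2, -0.18 and 0.19 for Tpm1, and -0.20 and 0.034 for Tpm2. Leaving out 1 array without a block gives experiment 3 unequal weight in the GemKD and control means. The count of 11 member probe sets high in experiment 3 was 9 to 13 and that of 4 past 2-fold was 3 to 5 under all alternatives. Actg2 was between -0.28 and 0.098 in experiment 3 when arrays were left out, the only one of the 10 brightest member probe sets to change sign in that difference. Acta1, Actg2 and 2 other probe sets above the filter had mean signals under 50, where sizes depend on the pseudocount.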

Other observations

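Of the 3 member probe sets below the filter, 2 read Acta2. One of them, 1444105_at, was at 16 in GemKD and 22.9 in control in experiment 3 and at 1.96 to 15.7 in the other 4 arrays, which is the opposite order to the bright Acta2 probe set. The other, 1456658_at, was at 5.61 in GemKD and 8.39 in control in experiment 3 and at 5.34 to 12.6 in the other 4, with overlap. Among the pathway lists, 54 genes had a RefSeq promoter, and 8 of them held a CArG box in the 250 bases before the start, against 1.62% of all genes in that table. The lists include known SRF targets, so nothing is read from this share. The form with 1 other core base was in 10 of the 54, against 8.33% of all genes, and the CATTCC motif in 14, against 14.4%.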
